A study of Caenorhabditis elegans with 2 samples.

Results

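Binding of the TBP-like factor TLF-1 was examined at 10 maternal RNA-binding protein genes of Caenorhabditis elegans, mex-1, mex-3, mex-5, mex-6, pos-1, spn-4, oma-1, oma-2, pie-1 and gld-1. They were chosen by symbol for their shared role, and all 10 were found among the 19973 protein-coding genes annotated on assembly WBcel235, which is the same as ce11. A gene was counted when the summit of a peak, the position of its maximum, lay between 1000 bp upstream and 500 bp downstream of the annotated 5′ end of the gene. The data were chromatin immunoprecipitation and sequencing (ChIP-seq) peaks from 1 group of 2 biological replicates and there was no other group. Per the labels, the worms were strain OP749, which carries the integrated transgene wgIs749 (tlf-1::TY1::EGFP::3xFLAG with unc-119(+)) in an unc-119(tm4063) mutant. Young adults aged 65.5 hours with the sexes pooled were used, after synchronization by starving L1 larvae hatched from bleached worms. Tagged TLF-1 was precipitated with an antibody against GFP. Whether the transgene is expressed like the native gene is not given in the sources used here, no untagged strain was analysed, and the labels do not say whether the replicate cultures were grown at different times. Whole animals were used, so binding in fewer cells and weaker binding in each cell cannot be told apart.

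The proteins made by these genes act on messages that the mother loads into the oocyte, at a time when the early embryo makes little RNA of its own. MEX-1, MEX-5, MEX-6, POS-1, PIE-1, OMA-1 and OMA-2 share a tandem CCCH zinc finger RNA-binding domain, MEX-3 and GLD-1 bind RNA through KH domains, and SPN-4 through an RNA recognition motif. They repress, stabilize or localize maternal messages through sites that lie mostly in untranslated regions. Several of them thereby help to set which daughter of an early division makes which fate regulators. TLF-1 is related to TBP, the protein that binds the TATA box, and in C. elegans it is known to be needed for transcription of a subset of embryonic genes.

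TLF-1 summits were found in front of 8 of the 10 genes in the list of peaks thresholded on the irreproducible discovery rate (IDR), a measure of how reproducibly peaks rank in both replicates. The DNA under these 8 summits is shown because the position and content of these stretches are what the results below describe. Each line gives 160 bases of the RefSeq copy of WBcel235, with the summit after the first 80 bases, written 5′ to 3′ along the strand of the gene, in order of the signal value of the peak. Capitals mark the word ACCGTA, which reads TACGGT on the other strand, and the word AAGGCGC, which reads GCGCCTT on the other strand.
mex-1 (chrII:11968380-11968539, plus strand): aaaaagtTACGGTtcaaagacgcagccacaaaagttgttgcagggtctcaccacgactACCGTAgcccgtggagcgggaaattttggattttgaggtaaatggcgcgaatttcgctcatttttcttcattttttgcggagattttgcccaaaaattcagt
spn-4 (chrV:6785060-6785219, minus strand): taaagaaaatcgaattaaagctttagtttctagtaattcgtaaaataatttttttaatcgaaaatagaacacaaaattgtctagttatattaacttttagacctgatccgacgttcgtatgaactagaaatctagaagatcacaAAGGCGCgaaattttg
pos-1 (chrV:8413761-8413920, plus strand): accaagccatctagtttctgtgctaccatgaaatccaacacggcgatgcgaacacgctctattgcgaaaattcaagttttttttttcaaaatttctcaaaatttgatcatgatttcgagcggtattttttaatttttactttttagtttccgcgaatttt
mex-5 (chrIV:13353362-13353521, plus strand): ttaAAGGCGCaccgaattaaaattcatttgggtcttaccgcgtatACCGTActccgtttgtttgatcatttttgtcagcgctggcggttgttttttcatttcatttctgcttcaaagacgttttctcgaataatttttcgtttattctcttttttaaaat
oma-1 (chrIV:8888643-8888802, plus strand): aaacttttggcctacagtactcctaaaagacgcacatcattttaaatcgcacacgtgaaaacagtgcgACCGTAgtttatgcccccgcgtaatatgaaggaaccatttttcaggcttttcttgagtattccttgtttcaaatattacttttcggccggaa
oma-2 (chrV:8028925-8029084, plus strand): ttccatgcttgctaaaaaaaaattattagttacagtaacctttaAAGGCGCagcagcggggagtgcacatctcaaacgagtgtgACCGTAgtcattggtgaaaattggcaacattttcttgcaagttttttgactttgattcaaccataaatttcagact
pie-1 (chrIII:12426720-12426879, plus strand): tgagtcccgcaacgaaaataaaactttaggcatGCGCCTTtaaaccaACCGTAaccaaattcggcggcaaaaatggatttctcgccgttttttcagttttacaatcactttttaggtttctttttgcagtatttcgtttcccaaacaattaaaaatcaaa
mex-6 (chrII:9523674-9523833, plus strand): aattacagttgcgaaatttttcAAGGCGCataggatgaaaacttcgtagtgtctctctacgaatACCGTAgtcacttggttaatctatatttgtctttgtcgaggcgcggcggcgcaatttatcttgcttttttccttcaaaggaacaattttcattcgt
The word ACCGTA lay under 6 of the 8 summits, those of mex-1, mex-5, mex-6, oma-1, oma-2 and pie-1, and was not found under those of pos-1 and spn-4. In all 6 a copy stood on the strand of the gene, and its first base was between 35 bp upstream of the summit, at mex-5, and 4 bp downstream, at oma-2. At mex-1 a further copy on the other strand began 73 bp upstream of the summit. In windows of 200 bp around summits, 16.6% of the 1035 IDR summits in front of any coding gene had the word, and so did 6.19% of windows placed 249 bp upstream of each of the 19973 coding genes. With the word required within 40 bp of the centre the count was again 6 of 8, and the shares were 10.2% and 2.38%. AAGGCGC stood in the windows of mex-5, mex-6, spn-4, oma-2 and pie-1 (5 of 8), against 9.47% of IDR windows and 2.32% of windows at that fixed place. Within 40 bp of the centre only the copy of oma-2 was left (1 of 8), against 4.93% and 0.891%, so most copies of this word stood away from the summits. These words came out of a search over all 2080 words of 6 bases, in which 35 were shared by 5 or more of the 8 windows and 3 of these were in at most 10% of the fixed-place windows: ACCGTA and the overlapping pair AAGGCG and AGGCGC. The search was made after the sequences had been read, so the counts describe these windows and are no test.

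At the annotated starts, 8 of the 10 genes had an IDR summit in the window, where 6.98% of all coding genes (1394 of 19973) had one. In the pooled list, which is 28153 peaks long and includes weak ones, 9 of the 10 did, against 40.4% of coding genes. The longer lists of single replicates held a summit at 9 genes in replicate 1, against 37.2% of coding genes, and at 8 in replicate 2, against 36.8%. The strongest IDR summit of each of the 8 lay upstream, from 434 to 93 bp before the start, and in the annotation each was intergenic. The exceptions were mex-3, whose IDR summit was inside the gene, and gld-1, which had weaker summits outside the IDR list.

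**Figure D1:**
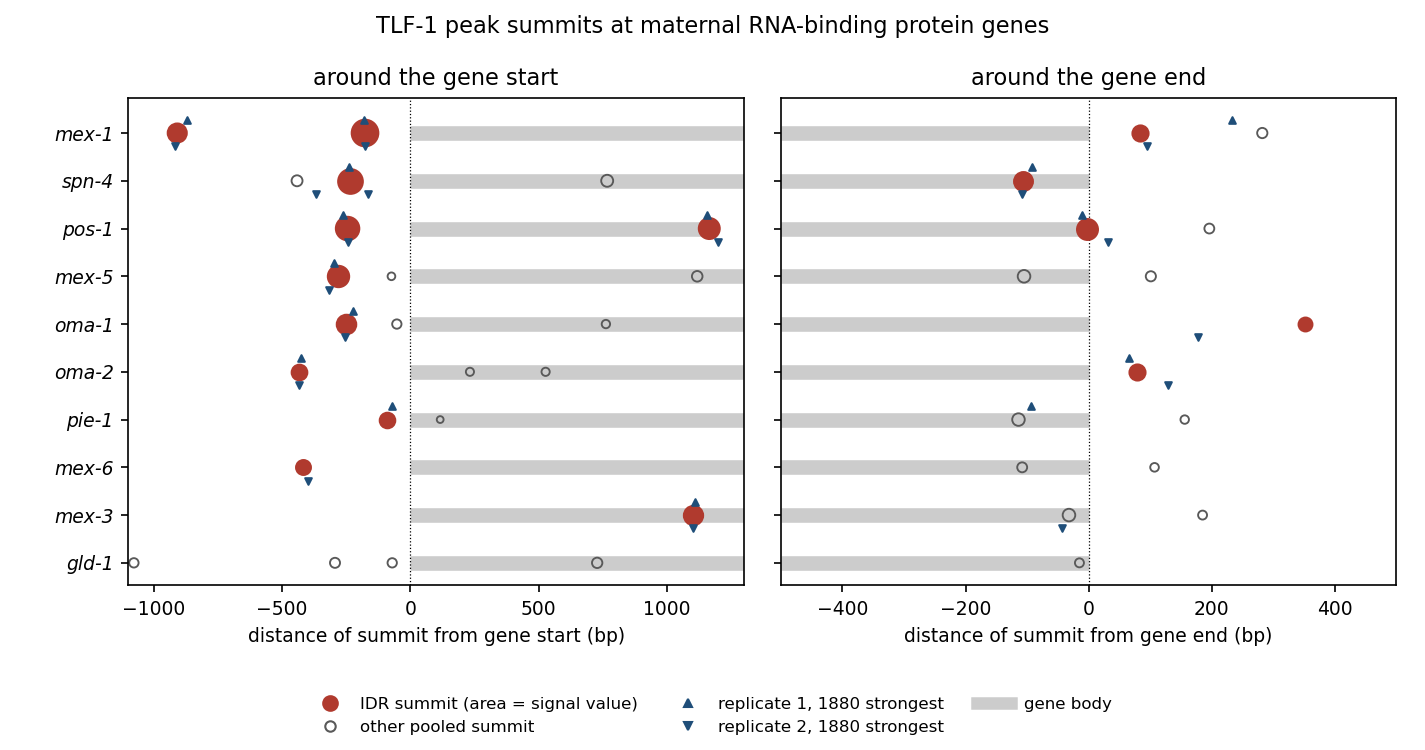
Positions of TLF-1 summits at the 10 genes, in bp from the annotated gene start (left) and gene end (right), with rows ordered by the signal value of the strongest IDR summit near the start and gene bodies in grey. Filled circles are IDR summits and open circles other pooled summits, with area proportional to the signal value, and triangles are summits among the 1880 strongest peaks of each replicate. The 8 upper genes have a filled circle left of the start, mex-3 has one at 1101 bp inside the gene, and gld-1 has open circles only.

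The strongest summits were at mex-1, spn-4 and pos-1, which act in the blastomeres of the early embryo. MEX-1 and POS-1 are CCCH proteins needed to specify germline and posterior fates, and SPN-4 is a partner of POS-1 that regulates glp-1 and other maternal messages. The mex-1 gene (WBGene00003228, chromosome II, 11968637 to 11972330, plus strand) had a summit 182 bp upstream with a signal value of 141 in replicate 1, and 176 bp upstream with 185 in replicate 2. These summits were ranked 140 and 97 in their lists, and the IDR peak (11968345 to 11968584) lay at -177 bp with a signal value of 325 and rank 108 of 1880. The signal value is the authors' own measure of a peak and is read here within a list only, so the larger value of the pooled data is no difference from the replicates. A further IDR summit stood 909 bp upstream of mex-1, just inside the window, with a signal value of 167 and rank 465. It was nearer to W03C9.5, 184 bp before the start of that gene, and was ranked 630 in replicate 1 and 417 in replicate 2.

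At spn-4 (WBGene00004984, chromosome V, 6783187 to 6784903, minus strand) the summits were 238 bp upstream with a signal value of 138 in replicate 1, and 167 bp upstream with 143 in replicate 2. Their ranks were 149 and 170, and the IDR summit lay at -236 bp with 279 and rank 161. At pos-1 (WBGene00004078, chromosome V, 8414086 to 8415254, plus strand) they were at -262 bp with 131 in replicate 1 and at -245 bp with 124 in replicate 2, ranked 165 and 233. The IDR summit of pos-1 was at -245 bp with 252 and rank 188. These 3 genes thus stood among the strongest 233 peaks in both replicates, in the same order of signal value.

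MEX-5 and MEX-6 are nearly redundant CCCH proteins that gather in the anterior of the zygote and restrict germline factors to its posterior, and the summit of mex-5 was the stronger of the pair in both replicates. The mex-5 gene (WBGene00003230, chromosome IV, 13353723 to 13356104, plus strand) had a summit at -297 bp with a signal value of 118 in replicate 1 and at -318 bp with 87.1 in replicate 2, ranked 209 and 513. The mex-6 gene (WBGene00003231, chromosome II, 9524174 to 9526359, plus strand) had one at -414 bp with 34.2 in replicate 1 and at -401 bp with 60.6 in replicate 2, ranked 3032 and 1079. In the IDR list mex-5 stood at -281 bp with 209 and rank 296, and mex-6 at -420 bp with 102 and rank 1289. The mex-6 peak of replicate 1 was outside the 1880 strongest of that list, with a -log10 q-value of 2.38, below the maximum of 3.53 that strong peaks reach.

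OMA-1 and OMA-2 are redundant regulators of oocyte maturation, and again 1 gene of the pair had the stronger summit in both replicates. At oma-1 (WBGene00003864, chromosome IV, 8888976 to 8890999, plus strand) the summits were at -223 bp with a signal value of 61.9 in replicate 1 and at -256 bp with 109 in replicate 2, ranked 874 and 311. At oma-2 (WBGene00003865, chromosome V, 8029439 to 8031214, plus strand) they were at -427 bp with 44.9 in replicate 1 and at -434 bp with 65.4 in replicate 2, ranked 1724 and 939. The IDR values were 174 and rank 426 at -253 bp for oma-1, and 113 and rank 1039 at -434 bp for oma-2. The summits of mex-6 and oma-2, the weaker member of each pair, were also the 2 farthest from their starts.

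PIE-1, a CCCH protein that keeps transcription off in the germline blastomeres, had the summit closest to its start. In pie-1 (WBGene00004027, chromosome III, 12426893 to 12429195, plus strand) it lay at -73 bp with a signal value of 57.7 and rank 1012 in replicate 1, and at -134 bp with 43.5 and rank 2252 in replicate 2. The IDR summit was at -93 bp with 111 and rank 1086. In replicate 2 the peak was outside the 1880 strongest, with a -log10 q-value of 2.81.

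MEX-3, a KH domain protein that represses the posterior fate regulator pal-1 in anterior cells, was the gene whose summit lay inside. The mex-3 gene (WBGene00003229, chromosome I, 127285 to 134270, plus strand) has 5 annotated transcript starts, at 0, 1, 99, 1412 and 4977 bp from its 5′ end. No list held a summit in the window of the gene start. An IDR summit lay in an intron at +1101 bp with a signal value of 170 and rank 447, at +1110 bp with 74.3 in replicate 1 and at +1103 bp with 92.2 in replicate 2, ranked 571 and 449. That position is 311 bp upstream of the transcript start at 1412 bp, so with every annotated transcript start counted, 9 of the 10 genes had an IDR summit, against 7.41% of coding genes. The ACCGTA word was found there too, with its first base 48 bp upstream of the summit. Which of these starts is used in young adults was not measured here.

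GLD-1, the KH domain protein that represses maternal messages in the meiotic germline and falls away as oocytes form, had the weakest start summit of the 9 genes with one in the pooled list. The pooled list held summits at -294 bp and -71 bp of gld-1 (WBGene00001595, chromosome I, 7695681 to 7698222, plus strand), with signal values of 46.5 and 40.2 and ranks of 5767 and 7805 among 28153. Their -log10 q-values were 1.06 and 0.64. Replicate 1 had summits at -296 and -68 bp, the stronger with 37.3 and rank 2508, and replicate 2 had none in the window. The replicate 1 value was above the 34.2 of mex-6 in that list. The weakest IDR peak has a signal value of 83.6 in the pooled list, so both gld-1 summits were below that level. The word ACCGTA was found at gld-1 too, on the other strand, from 18 to 23 bp downstream of a pooled summit. It was thus not limited to genes with an IDR summit.

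The replicates placed the summits closely. Each of the 8 IDR summits had a summit within 100 bp in both replicates. The IDR list was itself derived from the replicate and pooled lists, so these matches are no independent support. No share of all IDR summits stands beside them. The replicates differed from each other by 6 bp at mex-1, 7 bp at oma-2 and at most 71 bp, at spn-4. In each replicate's own ranking, 6 of the 8 peaks stood above rank 1880 in both lists. The exceptions were mex-6 in replicate 1 and pie-1 in replicate 2. Over the whole IDR list, 1280 of the 1880 peaks overlapped the strongest peaks of both replicates, so 6 of 8 is near the general share. The order of signal values was mex-1, spn-4 and pos-1 in both. Below them mex-5 was the next in replicate 1 and oma-1 in replicate 2, and pie-1 stood sixth of the 8 in replicate 1 and last in replicate 2. Order among these lower genes thus differed between replicates.

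**Figure D2:**
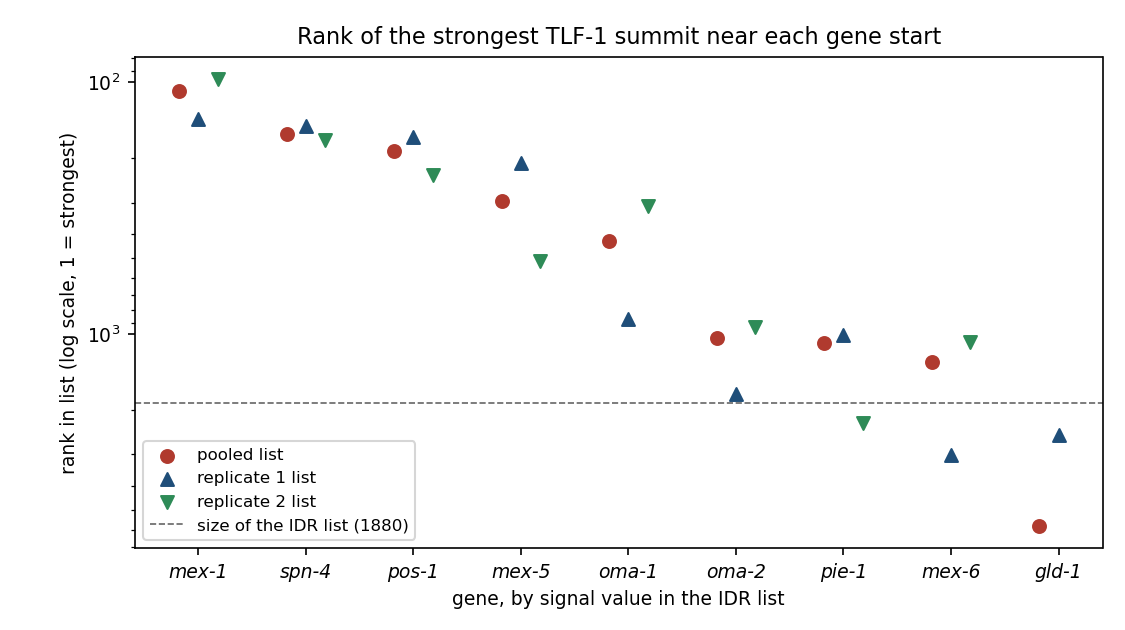
Rank of the strongest TLF-1 summit from -1000 to +500 bp of each gene start in the pooled list (circles), replicate 1 (upward triangles) and replicate 2 (downward triangles), on a log scale with rank 1 at the top. The dashed line is the length of the IDR list, 1880. Ranks of mex-1, spn-4 and pos-1 lie between 97 and 233 in every list, mex-6 in replicate 1 and pie-1 in replicate 2 lie below the line, and gld-1 has no point for replicate 2.

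The 8 genes can be set beside all coding genes with an IDR summit in the window. Their median distance was -249 bp and that of the 1394 coding genes, members included, was -232.5 bp. All 8 of these strongest summits were upstream, as were 89.3% of those at coding genes. The median signal value was 192 for the 8 and 129 for the 1394, and 5 of the 8 were among the strongest 940 of the 1880 IDR peaks, as were 797 of the 1394. The 4 strongest peaks, of mex-1, spn-4, pos-1 and mex-5, were 240, 198, 206 and 168 bp wide, while the other 4 had the width of 404 bp that is also the median of the IDR list. The 8 genes are too few, and were chosen with earlier results of these data known, for a test of these differences.

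**Figure D3:**
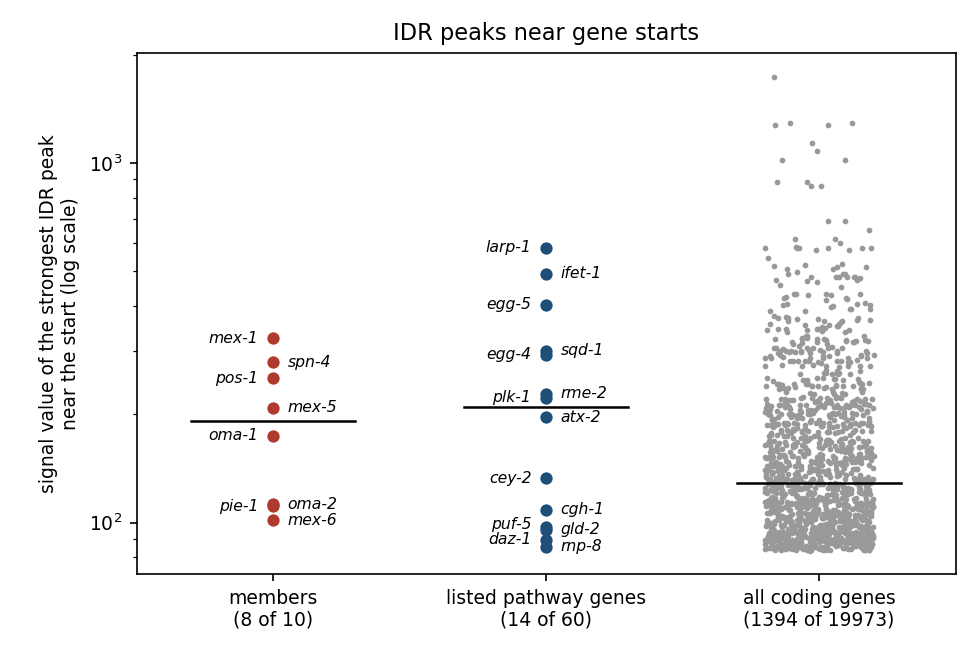
Signal value on a log scale of the strongest IDR peak from -1000 to +500 bp of the gene start, for the 8 of 10 maternal RNA-binding protein genes, for 14 of 60 genes from 4 lists of the same pathway, and for 1394 of 19973 coding genes. Each point is a gene and each bar a median. The 8 genes run from 102 for mex-6 to 325 for mex-1, with a median of 192, against 129 for all coding genes.

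Some of the summits also lay in front of a neighbour that is read away from the gene. The mex-5 summit stood 249 bp before rec-8, which encodes a meiotic cohesin subunit, in a gap of 530 bp between both starts, and it was nearer to rec-8 than to mex-5. The pos-1 summit stood 359 bp before vha-18, a vacuolar ATPase gene, with 604 bp between the starts. The spn-4 summit stood 312 bp before spe-39, a gene needed in sperm formation, with 548 bp between the starts. At mex-1 the strong summit was 916 bp from W03C9.5, and the weaker one at -909 bp was also 797 bp before rab-7, a small GTPase gene. Peaks do not say which of the genes a summit serves. With each summit counted for the nearest coding start only, 7 of the 10 genes were left and mex-5 was lost. The share of all coding genes was not computed for this setting, so this count has no background beside it. No other coding gene shared the IDR summits of mex-6, oma-1, oma-2 and pie-1.

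TLF-1 summits also stood at the ends of these genes. Within 250 bp of the annotated 3′ end, 4 of the 10 genes had an IDR summit, against 3.34% of coding genes of 750 bp or more (591 of 17675) and 15.8% of those with an IDR summit at the start (198 of 1253). In the pooled list 9 of the 10 did, against 24.2%. The lists of single replicates held one at 8 genes in replicate 1, against 20.1%, and at 10 in replicate 2, against 22.1%. This count was added after the peaks had been viewed, and is a description of these genes.

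The strongest end summit was at pos-1, 3 bp before the annotated end in the 3′ untranslated exon, with an IDR signal value of 201 and rank 321. It lay 11 bp before the end with 84.7 in replicate 1 and 31 bp after it with 121 in replicate 2, ranked 447 and 239. At spn-4 the end summit was 107 bp before the end, with 163 and rank 491, and ranks of 425 in replicate 1 and 606 in replicate 2. In pos-1 and spn-4 the end summit was weaker than the summit at the start. At oma-2 the end summit lay 79 bp past the end with 118 and rank 935, and the start summit had 113. The end and start values of oma-2 were 56.3 and 44.9 in replicate 1, and 65.0 and 65.4 in replicate 2, so the replicates differed in which was higher. At mex-1 the IDR summit was 83 bp past the end with 119 and rank 924, within a coding exon of acbp-6, an acyl-CoA-binding protein gene on the other strand. The replicates placed it differently, 233 bp past the end in an intron of acbp-6 with rank 1600 in replicate 1, and 94 bp past the end in the coding exon with rank 752 in replicate 2.

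Next to some of these ends another gene begins. The oma-2 end summit was also 118 bp upstream of the start of vars-1, a valyl-tRNA synthetase gene on the same strand. At oma-1 an IDR summit lay 351 bp past the end, outside the window, with 88.1 and rank 1692, in the stretch of 462 bp before spr-2. The pooled end summits of mex-3 and gld-1, at -32 and -15 bp, were 99 bp before F53G12.4 and 94 bp before T23G11.10. At pos-1 and spn-4 the next gene converges on the end instead: lmd-3 ends 393 bp past pos-1, and ZC404.15 overlaps the end of spn-4 by 8 bp. By the start window used above, only oma-2 among the genes with an IDR end summit had another coding start near it. The IDR end summits of mex-1, pos-1 and spn-4 had none. The strongest pooled end summits of mex-5, mex-6 and pie-1 had none either. Pooled end summits of mex-5, pie-1 and mex-6, between 114 and 105 bp before the end, had signal values of 73.3, 72.4 and 45.4, below the IDR list.

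**Figure D4:**
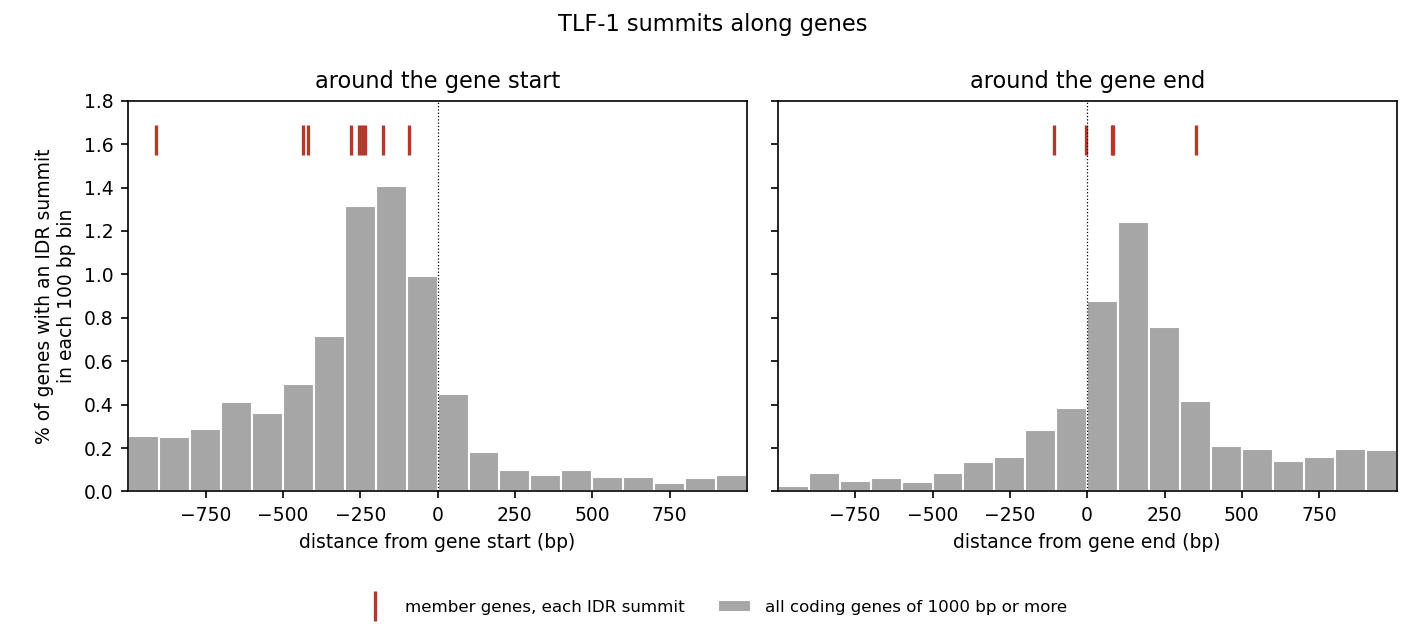
Share of coding genes of 1000 bp or more with an IDR summit in each 100 bp bin around the annotated start (left) and end (right), in grey bars, members included. Red marks show each IDR summit of the 10 genes on the same axes. The bars are highest between 300 and 100 bp before the start and between 100 and 200 bp after the end, and marks of 8 genes lie from 434 to 93 bp before the start, with a further one of mex-1 at 909 bp.

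The 4 lists of genes that act with these proteins were looked at with the same window. Among other regulators of maternal and germline RNA, 9 of 25 had an IDR summit (36.0%), against 6.98% of coding genes. A pooled summit was at 21 of them, against 40.4%. The strongest was at larp-1, a La-related protein gene, 650 bp upstream with 580 and rank 18, in a window shared with wip-1, and its ranks were 20 in replicate 1 and 13 in replicate 2. The summit of ifet-1, the gene of an eIF4E-binding repressor, was at -507 bp with 491 and rank 35, and was shared with the ribosomal protein gene rps-1. That of sqd-1, a homologue of the Drosophila hnRNP gene squid, was at -322 bp with 301 and rank 130. Next came atx-2, the ataxin-2 gene, at -54 bp with 196 and shared with ecps-1, cey-2, a Y-box protein gene, at -238 bp with 133 and shared with xrep-4, and cgh-1, a DEAD-box helicase gene, at -758 bp with 109. The remaining 3 were gld-2, daz-1 and rnp-8, at signal values between 85.7 and 95.5. No IDR summit was at nos-1, nos-2, nos-3, fog-1 or fog-2.

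Among genes of partners that modify or degrade these proteins, 3 of 14 had an IDR summit (21.4%) and 10 a pooled one. The shares of coding genes were 6.98% and 40.4%. The 3 genes were egg-5 at -698 bp with 403 and rank 65, egg-4 at -265 bp with 293 and rank 140, and plk-1 at -215 bp with 222 and rank 244. EGG-4 and EGG-5 are near-identical pseudophosphatases that hold the kinase MBK-2 at the oocyte cortex, and PLK-1 is a polo kinase that binds MEX-5. The kinase genes mbk-2 and par-1 had no summit in the window of the gene start in any of the 4 lists, but mbk-2 had an IDR summit when every annotated transcript start was counted. Among messages that these proteins bind or regulate, 2 of 14 had an IDR summit (14.3%) and 11 a pooled one, against the same shares. With 14 genes, a count of 2 is too small to set the list apart from coding genes. The 2 were rme-2, the yolk receptor gene, at -89 bp with 228 and rank 236, and puf-5, a Pumilio family gene, at -142 bp with 97.1 and rank 1406. The targets glp-1, pal-1 and skn-1 had summits in the pooled list and in both replicate lists but no IDR summit.

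The 10 other tandem CCCH genes listed had no IDR summit in the window of the gene start, where 6.98% of coding genes had one. A pooled summit was at 3 of them, against 40.4%, with at most 34.5, at moe-3, which is related to oma-1 and oma-2. With every annotated transcript start counted, ccch-1 also had an IDR summit. The gene ccch-3, named in the same series but not on this list, had an IDR summit at +98 bp with 129 and rank 771. Among as few as 10 genes, having no IDR summit is near the share of coding genes and is no trait of the listed ones. The 7 CCCH genes among the maternal ones all had one at the gene start. Whether they differ from other CCCH genes was not tested. Over the 4 lists together, 14 of 60 genes had an IDR summit (23.3%), against 6.98% of coding genes, and 42 had a pooled one (70.0%), against 40.4%. With every annotated transcript start the count was 16, against 7.41%. With each summit counted for the nearest start only it was 12, and the genes lost were larp-1 and ifet-1. For that setting no share of coding genes was computed. The lists were drawn up from general knowledge with earlier results of these data known, and the counts are given without a test.

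Motifs known from promoters were searched on both strands in the 200 bp around each IDR summit. The E2F-like motif TTTNNCGC was in 5 of the 8 windows, those of mex-1, pos-1, spn-4, oma-1 and pie-1, against 27.0% of the 1035 IDR windows and 12.9% of windows 249 bp upstream of all coding genes. At spn-4 it overlaps the AAGGCGC copy. In promoters from 250 bp before to 50 bp after the start it was in 8 of 10, against 18.8% of coding promoters, and the genes without it were mex-6 and gld-1. The TATA box TATAAA was in 1 window, of oma-1, against 15.0% of IDR windows and 24.2% of fixed-place windows, and in 5 of the 10 promoters, against 37.9%. The word GCGCCA, the most over-represented one in an earlier analysis of these data, was in the window of mex-1 only, against 207 of the 1035 IDR windows and 3.68% of fixed-place windows. The CHR-like motif TTTGAA was in 5 windows, against 41.4% of IDR windows and 50.4% of fixed-place ones. The CCAAT box was in that of oma-2, against 29.0% of IDR windows and 34.0% of fixed-place ones. The E-box CACGTG was in that of oma-1, against 6.67% and 3.08%. The GATA motif GATAAG was in that of pos-1, against 7.83% and 8.73%. The NRF1-like motif was in none of the 8, against 5 of the 1035 IDR windows and 8 of the 19973 fixed-place windows.

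In the median, the windows under the summits held more CG pairs than the fixed-place windows at a similar base composition. Their median GC content was 34.2%, against 40.5% for IDR windows and 33.5% for fixed-place windows. They held a median of 10 such pairs, from 4 at oma-2 to 12 at mex-5, against medians of 11 in IDR windows and 5 in fixed-place windows. Both words in capitals and the E2F-like motif contain that pair, so their shares are not independent of it. A match of letters is no evidence that a factor binds there, and the part of CG content in these counts was not tested.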

How the data were processed

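Peaks on assembly ce11 were used as deposited. Per the README files deposited with the samples, a replicate list was derived from 1 set of alignments and a control common to both replicates, the pooled list from both sets and that control, and the IDR list from the other 3 lists. The replicate lists held 24495 and 23453 peaks, the pooled list 28153 and the IDR list 1880, which were the 1880 strongest pooled peaks. The caller, the aligner and the IDR threshold were each not given in the sources used here. Read depth is not known, and no interval for it can be given. The authors' signal value (column 7) ranked peaks within each list. The deposited -log10 q-value (column 9) described single peaks, and the deposited summit offset (column 10) placed them.

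Distances were computed from the 5′ ends of genes in Ensembl release 115, and sequence was read from the RefSeq copy of WBcel235. Annotated starts of trans-spliced genes can lie downstream of the true start. Named are all 10 members, coding genes sharing their summits, and up to 6 genes with the strongest IDR summits in each of the 4 lists. Others, such as genes near gene ends and listed genes without an IDR summit, were named after their values were seen. Members, lists and motifs were chosen with earlier results of these data known, and the gene-end count and the word search after the data were seen. With 1 group, no test was made. The alternatives tried were other windows, all transcript starts, whole peaks, other peak sets, each replicate alone and the nearest start only. The code was tested on simulated data. The tools were Python 3.11.15 with numpy 2.4.6, pandas 2.3.3 and matplotlib 3.10.9.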

Additional observations from a re-analysis of the deposited data

How the results depend on the processing

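Of the 10 maternal genes, 8 had an IDR summit near the start. That count was 4 with a window from 250 bp upstream to 100 bp downstream (mex-1, pie-1, pos-1 and spn-4, against 3.45% of coding genes) and 5 in the stronger 940 IDR peaks (against 3.99%). It was 8 from 500 bp upstream to 100 bp downstream (against 5.28%), 6 in the IDR peaks strong in both replicates (against 5.00%), and between 7 and 9 in the other settings. Without each replicate, peaks of the other stood in place of the IDR list, and the genes kept had peaks among its 1880 strongest. These are not IDR calls. The count was then 7, losing pie-1 without replicate 1 (against 6.59% of coding genes) and mex-6 without replicate 2 (against 6.89%). The median distance ranged from -256 to -238 bp. All 8 summits were matched in each replicate, but the IDR list was derived from the replicate lists, so this is no independent support. Of the 60 listed genes, 14 had an IDR summit. That count was 9 with the window from 500 bp upstream, 9 in the stronger 940 peaks, 9 in peaks strong in both replicates, 7 with the window from 250 bp upstream, and 42 in the whole pooled list. It was 13 without replicate 1 and 12 without replicate 2. The shares of coding genes for these settings are those given above, and 40.4% for the whole pooled list. The fewer positions or peaks in these settings, and the more in the pooled list, set the direction of these moves. The gene-end count of 4 was 9 in the whole pooled list (against 24.2% of coding genes), 4 within 150 bp (against 2.11%) and 5 within 400 bp (against 4.14%), and without each replicate ranged from 5 to 6. Gene-end settings were chosen after seeing the data. No share of coding genes was computed for whole peaks, for the nearest start only, or for gene ends without each replicate. No paired analysis was possible because there was 1 group only. Read depth is unknown, so what it limits at gld-1 and mex-3 could not be assessed.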
